A study of Mus musculus with 96 samples.

Results

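The regions described here are 361 of the 46832 chromatin peaks listed for mouse hepatocyte nuclei, chosen because fed mice had their largest accessibility at ZT15, the 3 h point of the study. A member had a fed group mean of at least 30 normalized reads at its best time, its largest fed mean at 3 h, and a fed amplitude of at least 1. Fed amplitude is log2(largest mean + 2) minus log2(smallest mean + 2) over the 4 fed times. Members were thus selected on fed values at all 4 times, so fed hepatocyte values, and differences from them, are given as a description only. By the same amplitude and level, 227 other peaks were highest at 8 h (ZT20), 532 at 16 h (ZT4) and 996 at 24 h (ZT12), which gives 2116 peaks in all.

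Accessibility was measured by ATAC-seq, in which the enzyme Tn5 cuts open chromatin and inserts sequencing adapters. Nuclei came from livers of female HEP-INTACT mice, whose tag marks hepatocyte nuclei for capture on beads, or of female MAC-INTACT mice, whose tag marks macrophage nuclei. The promoter that drives the tag is not given in the sources used here. Mice of the fasted groups had no food from ZT12 (lights off, the start of the mouse's active phase) for 3, 8, 16 or 24 h, and fed mice with free access to food were taken at the same times, with 4 mice in each of the 8 groups of a cell type. Beyond the tag, the labels list no other allele or agent. A level is given in normalized reads, the deposited value, which is the number of reads in a 200-bp peak divided by 1 factor per library. In bead-captured nuclei, a lower level in each nucleus and a smaller share of nuclei with open chromatin cannot be told apart.

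In mice, most food is eaten in the dark phase, and ZT15 falls early in it. Feeding raises insulin, which is known to turn on lipid synthesis and glycogen storage in hepatocytes through factors such as SREBP1c and LXR, while fasting is known to act through glucagon, glucocorticoids, FOXO1, CREB and PPAR alpha. The circadian clock, a feedback loop of BMAL1 and CLOCK with the PER, CRY and REV-ERB proteins, sets daily rhythms in the same cells, and feeding time is one of its main cues. Peaks carry the name that the deposited mm10 annotation gives them, that of the closest gene start (transcription start site, TSS), with the distance in bp. The name does not show that a peak acts on that gene.

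Most members lay away from promoters, and only 11 of them met a RefSeq promoter window of GRCm38.p6, taken as the 250 bases before a TSS. The sequences below are the parts of 5 members within such windows, given for the strand of the gene. Acot1 and G0s2 are shown because their peaks are described mouse by mouse below, Tsku and Mex3b because the same peak is open in macrophage nuclei, and Hspb1 because it holds 2 heat shock elements. The last 3 were chosen after their values were seen. Capitals mark matches on either strand to the motifs searched.
Acot1, chr12:84009346-84009501, plus strand: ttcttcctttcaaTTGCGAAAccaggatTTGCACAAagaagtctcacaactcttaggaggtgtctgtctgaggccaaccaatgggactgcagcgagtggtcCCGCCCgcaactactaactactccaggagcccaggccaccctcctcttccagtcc
G0s2, chr1:193273252-193273438, minus strand: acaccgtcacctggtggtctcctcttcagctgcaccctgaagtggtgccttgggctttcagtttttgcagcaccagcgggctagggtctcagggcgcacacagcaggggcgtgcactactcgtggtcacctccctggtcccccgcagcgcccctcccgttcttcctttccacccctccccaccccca
Tsku, chr7:98361314-98361513, minus strand: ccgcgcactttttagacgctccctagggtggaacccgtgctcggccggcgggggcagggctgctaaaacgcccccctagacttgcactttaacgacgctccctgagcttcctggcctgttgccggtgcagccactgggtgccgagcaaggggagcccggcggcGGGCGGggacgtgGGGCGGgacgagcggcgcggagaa
Mex3b, chr7:82867083-82867211, plus strand: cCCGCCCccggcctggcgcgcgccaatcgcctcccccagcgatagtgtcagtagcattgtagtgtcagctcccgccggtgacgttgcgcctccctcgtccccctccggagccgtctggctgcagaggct
Hspb1, chr5:135887703-135887902, plus strand: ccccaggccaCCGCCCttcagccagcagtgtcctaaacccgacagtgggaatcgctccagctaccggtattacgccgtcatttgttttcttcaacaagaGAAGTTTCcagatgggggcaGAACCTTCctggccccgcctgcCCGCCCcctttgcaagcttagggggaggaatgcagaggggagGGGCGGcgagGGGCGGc

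In the 10 member parts of at least 100 bases, 3 of the motifs searched on both strands were found. The C/EBP motif TTGCNNAA was in 2 of the 10 parts, 4.97% of the 7626 such parts of all hepatocyte peaks and 9.56% of all 32851 windows. The Sp1 GC box GGGCGG was in 4 of the 10, against 60.4% of all peak parts and 32.7% of windows. The heat shock element GAANNTTC was in 2 of the 10, against 2.23% of peak parts and 6.69% of windows. None of the 10 held the E-box CACGTG (7.61% of peak parts), the D-box TTATGTAA (0.380%), the STAT motif TTCNNNGAA (3.28%) or the glucocorticoid receptor motif ACANNNTGT (1.68%). Nor did they hold the forkhead motif TGTTTAC (1.35%), the sterol response element TCACNCCAC (0.695%), the cAMP response element TGACGTCA (2.88%), AP-1 TGANTCA (2.54%), HNF4 CAAAGTCCA (0.354%) or HNF1 GTTAATNAT (0.564%). The direct repeat TCAAAGGTC (0.223%), the inverted repeat GTCATGACC (0.0918%) and the unfolded protein response element TGACGTGG (0.603%) were not found either. Motifs can share bases, as the cAMP and unfolded protein response elements do with each other. A match is a description of these letters and does not show that a factor binds there.

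Reads in listed peaks numbered 4334668 ± 821505 per hepatocyte mouse (SD, n = 32), from 2458156 to 6098645, and 3492422 ± 693581 per macrophage mouse (SD, n = 32), from 1729720 to 4637873. The cell type labels were checked at promoter peaks, those within 1 kb of a TSS. The hepatocyte table lists promoter peaks for 9 of 10 hepatocyte marker genes (not Ttr), at 80.8 to 123 normalized reads per peak over the 32 libraries, and lists none for 10 macrophage, 8 sinusoidal endothelial or 9 lymphocyte and neutrophil markers. Of other cells it lists 1 promoter peak of a stellate cell marker (Reln, 10.3 to 79.6 reads) and 1 of a cholangiocyte marker (Sox9, 25.1 to 90.6 reads), with the other 7 and 5 genes of those lists unlisted. The Reln peak averaged 60.7 reads in fasted and 19.3 reads in fed mice at 3 h, and 29.4 reads in fasted and 52.4 reads in fed mice at 16 h. Its part in the results was not tested. No marker peak is a member.

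Introns held 181 of the 361 members (50.1%, against 37.6% of all hepatocyte peaks), and 124 were intergenic (34.3%, against 27.5%). Peaks annotated at a transcription termination site made up 24 members (6.65%, against 1.83%). Only 27 members (7.48%) lay within 1 kb of a TSS, against 34.9% of all peaks, while 121 lay at 1 to 10 kb, 152 at 10 to 50 kb and 61 farther away. Joined where they lay at most 1 kb apart, the members formed 326 loci, of which 301 held a single member and the largest held 5. They carried the names of 290 genes, 39 of them with at least 2 members, and 15 members overlapped another, so neighbouring members share reads and are not independent.

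In fed mice the median member had 50.7, 43.5, 43.9 and 46.4 normalized reads in the 4 mice at 3 h, 32.1, 34.4, 34.1 and 32.1 at 8 h, 19.6, 18.1, 18.7 and 18.1 at 16 h, and 33.6, 30.2, 25.8 and 26.2 at 24 h. The rule fixes the peak at 3 h but not the trough, which fell at 16 h for 288 members, at 24 h for 72 and at 8 h for 1. Fed amplitude ran from 1.00 to 2.86 with a median of 1.20, and the fed 3 h mean from 30.1 to 165 with a median of 45.3 reads. Fasted mice had a median member of 32.6, 24.5, 31.6 and 29.2 reads at 3 h, 38.4, 32.5, 34.5 and 34.5 at 8 h, 24.2, 23.9, 29.7 and 20.9 at 16 h, and 27.5, 26.5, 28.6 and 23.7 at 24 h. Fasted 16 h replicate 3 stood apart: its member sum was 16066 reads, against 9400 to 11162 in the other 3 mice, and it was the highest of the 4 in 190 members. Its median over all hepatocyte peaks, as log2(normalized reads + 2), was also the highest, at 5.94 against 5.81 to 5.84. Members held 0.426% of its normalized reads, against 0.266% to 0.311% in the other 3 mice. How often it was the highest among all peaks was not counted. At 3 h every fasted mouse was below every fed mouse, at 16 h every fasted mouse was above every fed mouse, and at 8 and 24 h the groups overlapped.

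**Figure D1:**
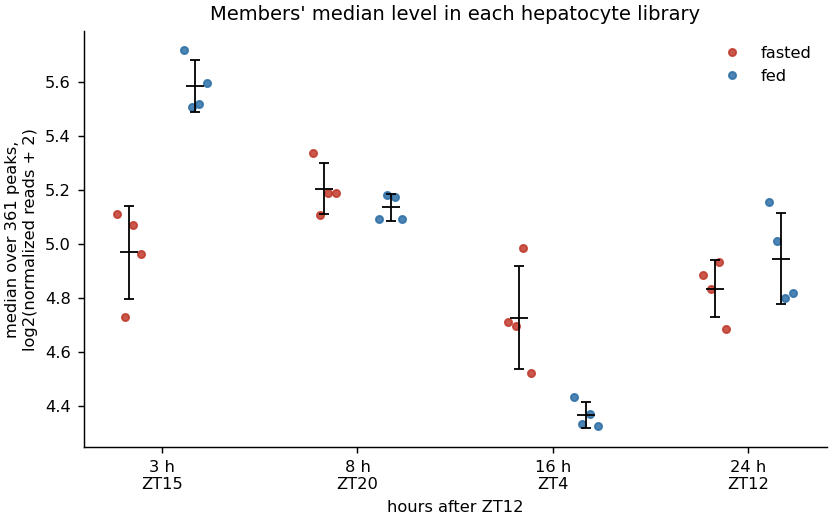
Median of the 361 members in each hepatocyte library, in log2(normalized reads + 2), by hours from ZT12, with fasted mice left of fed mice, a point per mouse and black bars for the mean and SD of 4. Fed mice average 5.59 at 3 h and 4.36 at 16 h, while fasted mice stay between 4.73 and 5.21 at all 4 times.

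At 3 h the fasted-minus-fed difference of the members had a median of -0.59 (log2), beside -0.01 for all tested peaks. Because fed libraries chose the members, this and the other fasted-minus-fed values in hepatocytes are a description. The choice of the members presets them, low at 3 h and high at the fed trough, so the call counts below are printed beside the background and nothing is read from the difference. Of the 361 members, 360 passed the filter of a mean of 10 reads over all libraries, and counts are given of all 361. At 3 h, 162 were called lower (44.9% of members, against 10.3% of all tested peaks) and 7 higher (1.94%, against 11.3%), a call being an adjusted p under 0.05 in limma. At 8 h the median was 0.02, with 90 called lower (24.9%, against 13.7%) and 94 called higher (26.0%, against 20.3%). At 16 h it was 0.35, with 50 lower (13.9%, against 12.8%) and 138 higher (38.2%, against 19.0%). At 24 h it was -0.12, beside 0.16 for all peaks, with 68 lower (18.8%, against 11.4%) and 50 higher (13.9%, against 25.3%).

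The members did not share one level in fasted mice at 3 h. The fasted 3 h mean was at or above the fed 3 h mean in 53 members, and nearer to the fed 3 h mean than to the lowest fed mean in 143. It was nearer to the lowest fed mean in 91 and below the lowest fed mean of the day in 74. Over all 4 times, the fasted mean was below the fed mean in 98 members and above it in 43. Among fasted groups the largest mean fell at 3 h for 80 members, at 8 h for 166, at 16 h for 58 and at 24 h for 57.

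**Figure D2:**
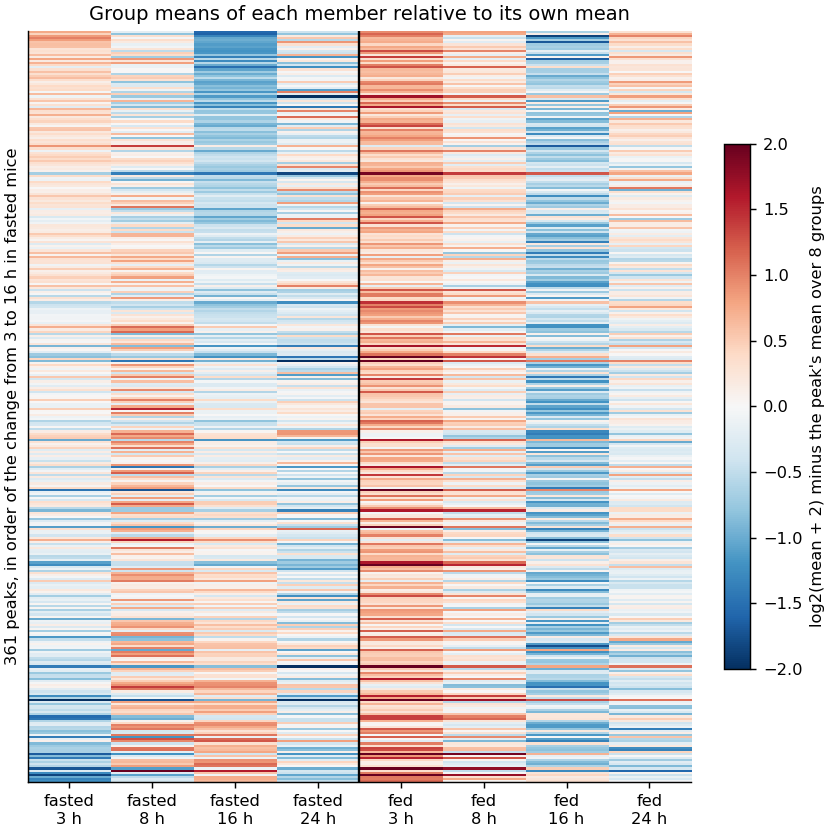
All 361 members as rows, with the 4 fasted groups (3, 8, 16 and 24 h) left of the 4 fed groups, drawn as log2(mean + 2) minus the member's mean over the 8 groups and sorted by the change from 3 to 16 h in fasted mice. The fed columns show the chosen pattern in every row, while in the fasted columns 112 members fell and 57 rose at 16 h.

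Beside Fasn, which encodes fatty acid synthase, 2 members named for Dus1l lay 1924 and 1423 bp from the gene body. The nearer to Dus1l (-7539 bp, chr11:120803834-120804034, fed amplitude 2.79) had 3.26, 1.00, 3.27 and 3.95 reads in fasted mice at 3 h, against 75.7, 33.2, 43.9 and 68.2 in fed mice. By 24 h fasted mice had 4.13 ± 2.0 reads and fed mice 6.30 ± 2.9 (SD, n = 4 each), and the groups overlapped.

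At Angptl8, which encodes a secreted inhibitor of lipoprotein lipase induced by feeding, 5 members lay 2253 to 3274 bp past the TSS within the overlapping gene Dock6. The member at +2591 bp (chr9:21838001-21838201, amplitude 2.73) had 1.63, 2.50, 1.09 and 6.32 reads in fasted mice at 3 h, against 79.6, 93.7, 65.1 and 96.5 in fed mice. At 8 h it had 6.36 ± 6.1 reads in fasted and 56.2 ± 36 in fed mice, at 16 h 14.6 ± 6.5 in fasted and 21.3 ± 5.9 in fed mice, and at 24 h 6.46 ± 3.1 in fasted and 11 ± 7.3 in fed mice.

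Car3, which encodes the abundant liver enzyme carbonic anhydrase III, had 4 members annotated at its termination site. The member at +9159 bp (chr3:14872597-14872797) had 0, 1.00, 0 and 1.58 reads in fasted mice at 3 h, against 73.2, 65.6, 56.9 and 60.2 in fed mice. It stayed between 0.409 ± 0.48 and 3.53 ± 3.5 reads at the other fasted times, against 20.2 ± 13 to 32.2 ± 5.2 in fed mice. The member at +8935 bp is the one that missed the filter, with fasted means of 0.172 to 2.06 reads and a fed 3 h mean of 34.1.

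At Scd1, which encodes the desaturase that makes monounsaturated fatty acids, the promoter member at -178 bp (chr19:44407787-44407987) had 14.7, 16.5, 20.7 and 15 reads in fasted mice at 3 h, against 136, 85.6, 101 and 121 in fed mice. Its fasted means were 11.6 to 17.5 reads at all 4 times, below its lowest fed mean of 43.6 reads at 16 h. At Insig1, whose protein retains the SREBP escort protein in the endoplasmic reticulum, 5 members lay from -35228 to +7726 bp. The one at +7726 bp (chr5:28079038-28079238) had 6.52, 8.50, 4.36 and 8.69 reads in fasted mice at 3 h, against 71.9, 28.8, 50.7 and 57.3 in fed mice. The one at -20443 bp, with the largest amplitude at the gene (1.99), averaged 22.6 reads in fasted and 59.8 in fed mice at 3 h.

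On the log2(value + 2) scale, the Scd1 member at +13618 bp had the most negative fasted-minus-fed difference at 24 h, with 4.82, 5.69, 3.89 and 4.91 reads in fasted mice, against 34.3, 66.0, 59.9 and 84.0 in fed mice. The member at Cited4, a transcriptional coactivator gene, averaged 14.9 reads in fasted and 59.4 in fed mice at 3 h. That at Fabp5, a fatty acid binding protein gene, had 4.89, 4.5, 3.27 and 3.95 reads in fasted mice at 3 h, against 81.5, 3.69, 20.6 and 29.0 in fed mice, so its groups overlapped. Across the 4 times, 12 members had a fasted mean under 10 reads at each.

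The members above fed mice at 3 h included the promoter of Acot1, an acyl-CoA thioesterase gene known as a target of PPAR alpha. This member (-57 bp, chr12:84009345-84009545) had 116, 94.5, 108 and 86.1 reads in fasted mice at 3 h, against 37.2, 43.5, 50.0 and 48.6 in fed mice. It was above fed mice at all 4 times, with 144 ± 24 reads in fasted and 33.0 ± 1.5 in fed mice at 8 h and 89.1 ± 4.2 in fasted and 38.0 ± 8.8 in fed mice at 24 h. At 16 h fasted mice had 17.3, 63.4, 111 and 49.8 reads and fed mice 15.4, 17.4, 11.8 and 18.1, so the groups overlapped. The member at +1853 bp of Cbfa2t3, a transcriptional corepressor gene, had 66.2 ± 19 reads in fasted and 33.8 ± 5.4 in fed mice at 3 h. The intronic member at +53500 bp of Abcb11, the bile salt export pump gene, had 58.2 reads in fasted and 33.6 in fed mice at that time.

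**Figure D3:**
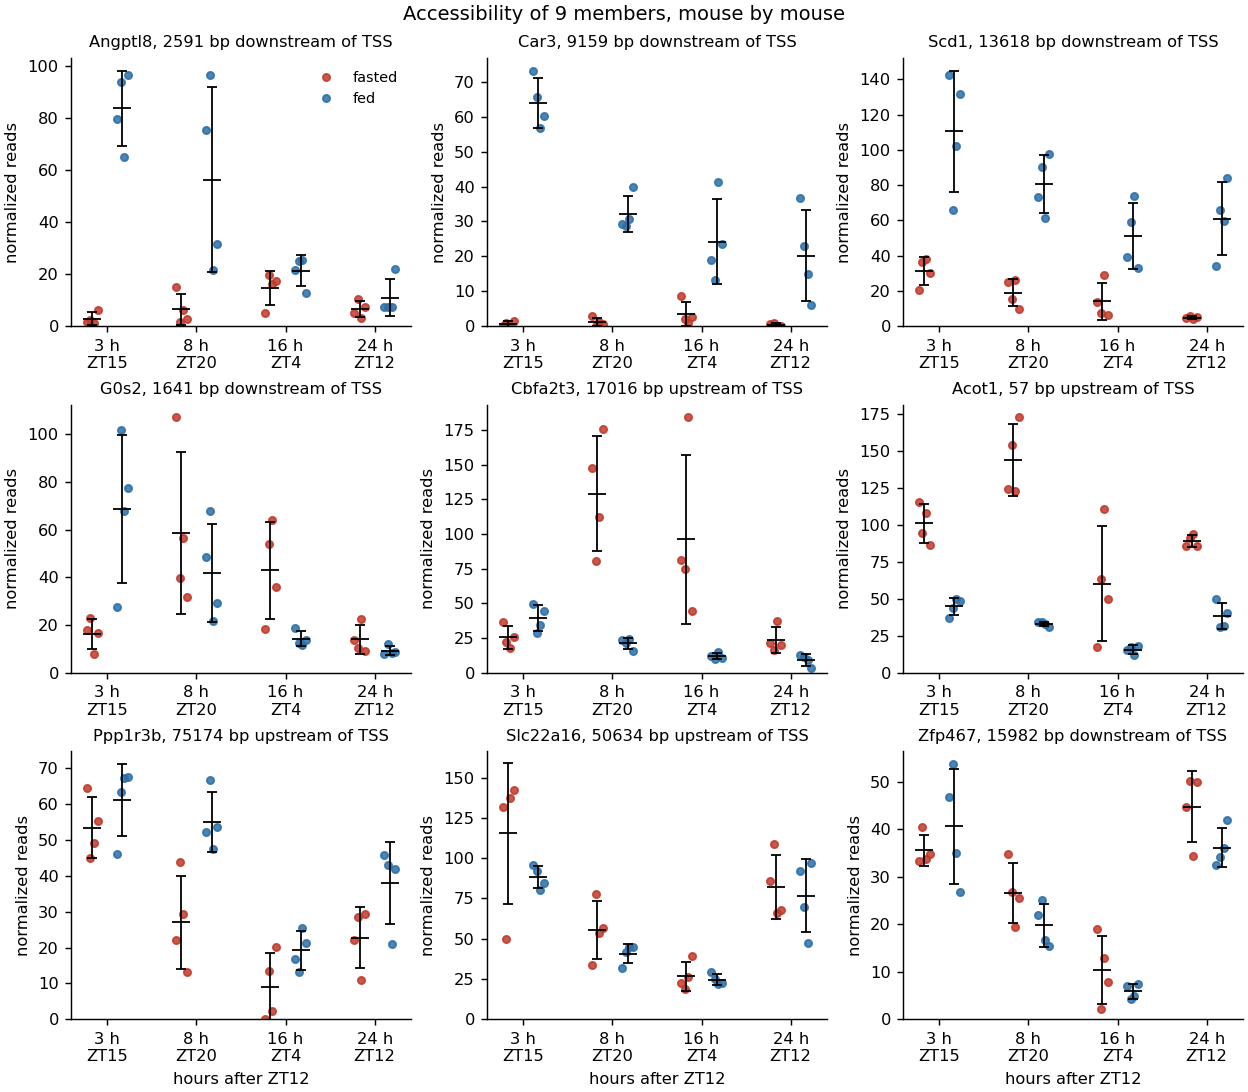
Normalized reads of 9 members in every hepatocyte mouse by hours from ZT12, with fasted mice left of fed mice at each time and black bars for the mean and SD of 4 mice. At 3 h, fasted mice are below fed mice at Angptl8, Car3 and Scd1 and above them at Acot1. The Scd1 member drawn is that at +13618 bp, whose largest fasted mean is at 3 h. Cbfa2t3 and G0s2 are highest at 8 h in fasted mice, and Ppp1r3b, Slc22a16 and Zfp467 are lowest at 16 h in both states.

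Fasted mice did not enter the rule, so their own time course can be tested. Each later fasted group was compared with fasted mice at 3 h, which all 3 comparisons share, in a limma fit over all 32 hepatocyte libraries with Benjamini-Hochberg adjustment over 46827 tested peaks. Time of day and hours without food cannot be told apart in these comparisons. Among the members, 250 (69.3%) varied with time in fasted mice by the moderated F test, against 52.1% of all tested peaks. Against 3 h, 14 members fell at 8 h (3.88%, against 4.64% of all peaks) and 73 rose (20.2%, against 10.9%). At 16 h, 112 fell (31.0%, against 13.4%) and 57 rose (15.8%, against 32%). At 24 h, 52 fell (14.4%, against 7.05%) and 24 rose (6.65%, against 14.6%).

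The median change of all tested peaks in these comparisons was 0.10 at 8 h, 0.17 at 16 h and 0.11 at 24 h (log2), and that of the members was 0.24, -0.17 and -0.11. Scaling moved the background: with edgeR on the recovered reads, 18.6% of all peaks fell and 15.5% rose at 16 h, and with DESeq2 18.4% fell and 14.9% rose. Of the members, 121 fell and 48 rose at 16 h with DESeq2. At 8 h they were 22 down and 56 up and at 24 h 65 down and 11 up with DESeq2, while of all peaks 7.24% fell and 3.98% rose at 8 h and 9.97% fell and 5.07% rose at 24 h. Without fasted 16 h replicate 3, 117 members fell and 46 rose at 16 h. The 73 rises at 8 h became 44 without fasted 3 h replicate 2, 42 without fasted 3 h replicate 4 and 43 without fasted 8 h replicate 1. The 24 h falls became 33 without fasted 3 h replicate 3 and 34 without fasted 24 h replicate 4, and the 24 rises became 11 without fasted 3 h replicate 2.

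**Figure D4:**
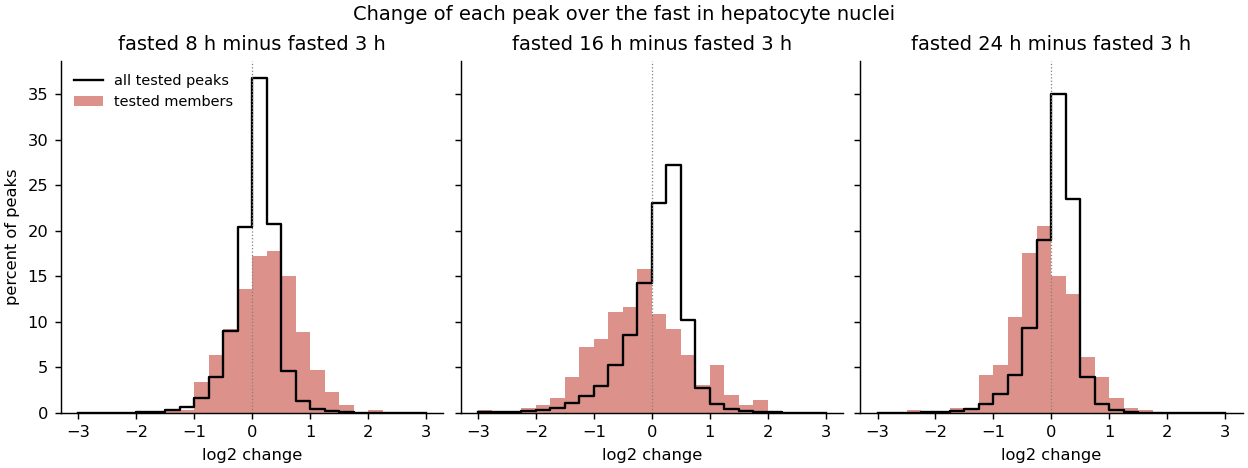
Changes of the 360 tested members (log2) from fasted 3 h to fasted 8, 16 and 24 h, beside those of all tested peaks, as shares per bin. The members are shifted up at 8 h (median 0.24, against 0.10 for all peaks) and down at 16 h (-0.17, against 0.17).

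By their calls at the 3 later times, 135 members were called at none, 63 fell at 16 h only, 35 fell at both 16 and 24 h and 32 rose at both 8 and 16 h. These are 37.4%, 17.5%, 9.70% and 8.86% of the members, against 46.5%, 7.42%, 3.99% and 8.6% of all tested peaks. The comparisons share the fasted 3 h mice, so their calls are not independent. No member rose at 8 h and fell at 16 h, and the share of all tested peaks with both calls was not counted. The 27 members within 1 kb of a TSS had 15 falls and 1 rise at 16 h with a median of -0.60, and the 334 farther away had 97 falls and 56 rises with a median of -0.16. Of all 16351 tested peaks within 1 kb, 5.05% fell and 48.7% rose (median 0.29), and of the 30476 farther away 17.9% fell and 23.1% rose (median 0.08). The 288 members with their fed trough at 16 h had 100 falls and 32 rises at 16 h, with a median of -0.215. The 72 with the trough at 24 h had 12 falls and 24 rises at 16 h, with a median of 0.198. Of all tested peaks, not split by fed trough, 13.4% fell and 32% rose at 16 h (median 0.17). The differences between these subsets, and between members and all peaks in them, were not tested.

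Members that fell in fasted mice at 16 h, when most members also had their fed trough, included the following. The member at -50634 bp of Slc22a16, a carnitine transporter gene, lay 50493 bp from that gene body and 35811 bp from the body of Cdk19. This member had 22.5, 18.7, 26.4 and 39.3 reads in fasted mice at 16 h, against 132, 50.0, 137 and 142 at 3 h. It fell by 1.97 ± 0.25 (log2 ± SE, here and below; limma adjusted p = 2.57e-07), and every 16 h mouse was below every 3 h mouse. The intronic member at +15982 bp of the zinc finger gene Zfp467 had 19.0, 2.08, 12.8 and 7.86 reads in fasted mice at 16 h, against 33.4, 40.5, 33.8 and 34.7 at 3 h. It fell by 1.83 ± 0.29 (limma adjusted p = 8.6e-06) and was back at 44.8 ± 7.4 reads at 24 h. In fed mice it had 5.88 ± 1.6 reads at 16 h and 36.2 ± 4.2 at 24 h.

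Ppp1r3b, the gene of a glycogen-targeting subunit of protein phosphatase 1, had 3 members that all fell at 16 h. The distal one at -75174 bp (chr8:35300467-35300667) had 0, 13.5, 2.40 and 20.1 reads in fasted mice at 16 h, against 64.4, 45.0, 49.1 and 55.3 at 3 h, a change of -2.89 ± 0.41 (limma adjusted p = 2.04e-06). The members at +13390 and +13026 bp changed by -1.56 ± 0.30 (adjusted p = 9.83e-05) and -1.20 ± 0.27 (adjusted p = 0.000576). Lpar3, a lysophosphatidic acid receptor gene, fell at 16 h by 1.87 ± 0.28 (adjusted p = 3.57e-06) and at 24 h by 1.37 ± 0.28 (adjusted p = 0.000837). The member near Vstm2l, inside Ctnnbl1, had 4.32, 0, 4.01 and 6.11 reads in fasted mice at 16 h, against 22.8, 16.0, 25.1 and 22.1 at 3 h, and had already fallen at 8 h by 1.29 ± 0.31 (adjusted p = 0.00556).

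At 8 h, 14 members fell (3.88%, against 4.64% of all tested peaks). The member of Sec14l2, a lipid-binding protein gene, had 29.9, 24.0, 23 and 17.9 reads in fasted mice at 8 h, against 41.6, 53.0, 53.5 and 38.7 at 3 h, a change of -0.93 ± 0.17 (limma adjusted p = 0.000455). It stayed low, at 22.4 ± 5.2 reads at 16 h and 27.5 ± 6.2 at 24 h, with fed means of 88.2 ± 3.6 at 3 h and 81.7 ± 5.3 at 8 h. The member of the F-box gene Fbxo33 changed by -0.99 ± 0.23 at 8 h (adjusted p = 0.00524) and returned to 22.5 ± 3.4 reads at 24 h, against 26.2 ± 5.2 at 3 h. All 14 members that fell at 8 h were also called lower at 16 h. Both comparisons share the fasted 3 h mice, and the share of all tested peaks with both calls was not counted.

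Of the 98 members that rose in fasted mice at 8 or 16 h, 59 had their largest fasted mean at 8 h, 35 at 16 h and 4 at 24 h. Rises took in 20.2% of members at 8 h, against 10.9% of all tested peaks, and 15.8% at 16 h, against 32%. The share of all tested peaks that rose at either time was not counted. The distal member of Cbfa2t3 (-17016 bp, chr8:122716025-122716225) had 148, 80.5, 113 and 176 reads in fasted mice at 8 h, against 36.7, 22.0, 17.5 and 26.1 at 3 h, a change of 2.24 ± 0.31 (limma adjusted p = 1.98e-05). At 16 h it had 81.2, 74.8, 184 and 44.5 reads, and at 24 h it was back at 23.7 ± 9.6. Fed mice averaged 39.2, 21.3, 11.8 and 9.08 reads over the 4 times.

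G0s2, the gene of an inhibitor of adipose triglyceride lipase, had 4 members that had all risen at 8 and 16 h. The one at +1641 bp had 107, 39.5, 56.3 and 31.7 reads in fasted mice at 8 h, against 17.9, 23, 7.64 and 16.6 at 3 h, a change of 1.66 ± 0.37 (limma adjusted p = 0.00329). It had 43.0 ± 20 reads at 16 h and 14.0 ± 6.2 at 24 h, while fed mice had 68.7 ± 31 at 3 h, 41.8 ± 21 at 8 h, 14.3 ± 3.2 at 16 h and 9.20 ± 1.9 at 24 h. The promoter member at -163 bp, whose sequence is given above, had 52.7, 106, 68.1 and 48.9 reads in fasted mice at 16 h, against 36.7, 26.5, 19.6 and 19.7 at 3 h, a change of 1.34 ± 0.29 (adjusted p = 0.000439). Its change at 8 h of 1.00 ± 0.29 (adjusted p = 0.0199) lost its call without fasted 8 h replicate 1 (0.76) or replicate 3 (0.88) and without fasted 3 h replicate 3 or 4 (0.90 each).

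The member at +15510 bp of Chd7, a chromatin remodeller gene, had 104, 60.7, 79.9 and 89.0 reads in fasted mice at 8 h, against 39.1, 24.5, 26.2 and 23.7 at 3 h, a change of 1.49 ± 0.27 (limma adjusted p = 0.000427). Intronic members of Dtx4, an E3 ubiquitin ligase gene, and Sept9, a cytoskeletal GTPase gene, rose at 8 h by 1.46 ± 0.27 (adjusted p = 0.000481) and 1.38 ± 0.26 (adjusted p = 0.000637). Both were also higher at 16 h, by 1.19 ± 0.27 (adjusted p = 0.000509) and 1.60 ± 0.26 (adjusted p = 1.08e-05). A second Sept9 member, at -10188 bp, fell at 16 h by 0.99 ± 0.13 (adjusted p = 8.88e-07), so members of a gene did not always move together. Inpp4a, a phosphoinositide phosphatase gene, rose at 8 h by 1.34 ± 0.28 (adjusted p = 0.00215).

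At 24 h, which is again ZT12 after a day without food, the Scd1 member at +13618 bp had its lowest fasted level and fell by 2.25 ± 0.32 from fasted 3 h mice (limma adjusted p = 9.36e-06). Fasted mice had 20.4, 36.5, 38.2 and 30.0 reads at 3 h, above all 4 mice at 24 h. The member near Cdk1, a cell cycle kinase gene, had 35.1, 22.7, 22.1 and 30.3 reads in fasted mice at 24 h, against 93.7, 74.5, 93.8 and 74.2 at 3 h, a change of -1.56 ± 0.24 (adjusted p = 3.07e-05). Coq8a, whose product acts in coenzyme Q synthesis, had 17.2, 13.3, 20.1 and 9.82 reads in fasted mice at 24 h, against 36.7, 48.0, 51.3 and 49.0 at 3 h, a change of -1.52 ± 0.23 (adjusted p = 1.86e-05). Cited4 changed by -1.22 ± 0.28 (adjusted p = 0.00219).

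Rises at 24 h were fewer than falls. The member of the E3 ligase gene Trim7 had 17.9, 23.7, 26.0 and 22.1 reads in fasted mice at 24 h, against 5.71, 5, 5.45 and 10.3 at 3 h. This was a change of 1.53 ± 0.27 (limma adjusted p = 0.00021). Fed mice had 26.4 ± 7.7 reads at 24 h and 62.2 ± 13 at 3 h. The member of the zinc finger gene Zfp184 had 19.4 ± 5.3 reads at 24 h and 6.47 ± 2.6 at 3 h in fasted mice, a change of 1.36 ± 0.30 (adjusted p = 0.00175). At the urea cycle gene Ass1 a run of 7 members, 6 named for Gm5424 and 1 for Fubp3, lay inside the gene body or within 1219 bp of it. Of the 6 named for Gm5424, 3 were called lower at 16 h and 3 higher at 24 h. In fasted mice the means of these 6 ran from 21.5 to 38.9 reads at 3 h and from 44.9 to 72.2 at 24 h. The Fubp3 one (chr2:31521888-31522088) had 130, 99.5, 110 and 124 reads in fasted mice at 24 h, above 88.0, 21.5, 88.4 and 41.9 at 3 h. Its rise of 1.12 ± 0.40 (adjusted p = 0.04) lost its call in DESeq2 (0.86), in edgeR (0.93) and without any one of fasted 24 h replicates 1 to 4 (1.07 to 1.19), fasted 3 h replicate 2 (0.73) or fasted 3 h replicate 4 (1.03). Fed mice had 34.4 ± 18 reads at 24 h.

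Of the 15 gene lists, 8 had no member named for a listed gene within 50 kb: gluconeogenesis, glucocorticoid response, growth hormone and STAT5, bile acids, endoplasmic reticulum stress, amino acid catabolism and urea cycle, immediate early genes, and interferon. The Ass1 members above carry other names and are not counted under the urea cycle. The share of peaks within 50 kb of any TSS that are members was 0.755%. Triglyceride clearance and lipoproteins had 9 members among 117 peaks (7.69%), 4 of which rose at 16 h, all at Angptl8. Of the list's 117 peaks, 16 fell and 28 rose at 16 h. Beyond Angptl8, the members of that list at Apoa4, an apolipoprotein gene, rose at 24 h by 0.85 ± 0.21 (-1813 bp, limma adjusted p = 0.00493) and 0.63 ± 0.21 (+485 bp, adjusted p = 0.0279). The Apoa4 member at -1813 bp averaged 130 reads in fasted and 42.7 in fed mice at 24 h. The member between Plin4 and Plin5, genes of lipid droplet proteins, averaged 79.0 reads at 8 h and 45.8 at 3 h in fasted mice, a change of 0.80 ± 0.23 (adjusted p = 0.0168) that lost its call without fasted 3 h replicate 2 (0.60) or fasted 8 h replicate 1 (0.73).

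The cholesterol list had 6 members among 125 peaks (4.80%), of which 4, all at Insig1, fell at 16 h and 2 at 24 h. Of the list's 125 peaks, 28 fell and 24 rose at 16 h. The Insig1 members at -20443, -35151 and -35228 bp changed at 16 h by -0.69 ± 0.20 (limma adjusted p = 0.00584), -0.91 ± 0.27 (adjusted p = 0.0063) and -0.84 ± 0.25 (adjusted p = 0.00687). The change of -0.87 ± 0.35 at +7726 bp (adjusted p = 0.039) was from 3 h levels under 10 reads and lost its call under 7 alternatives, among them edgeR (-1.38), an offset of 8 reads (-0.43) and the leaving out of 1 mouse (fasted 16 h replicate 3 or 4, -0.61 and -0.75, or fasted 3 h replicate 1, 2 or 4, -0.89, -0.79 and -0.78). The member near Hmgcs1, which encodes an early enzyme of cholesterol synthesis, had 32.3 reads in fasted and 34.1 in fed mice at 3 h and passed at no fasted time.

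Fatty acid and triglyceride synthesis had 5 members among 179 peaks (2.79%), at Scd1, Agpat2 and Dgat2. At 16 h, 48 of the list's peaks fell and 28 rose. Of the 3 Scd1 members, the one at +13618 bp fell at 16 h, and none was called higher at 8 or 16 h. The largest mean among the Scd1 members in fasted mice was 33.8 reads at 3 h, 46.4 at 8 h and 44.6 at 16 h. The member near Dgat2, whose product makes the last step of triglyceride synthesis, rose in fasted mice. It averaged 31.1 reads at 3 h, 71.9 at 8 h and 73.0 at 16 h, rises of 1.18 ± 0.22 (limma adjusted p = 0.000525) and 1.16 ± 0.22 (adjusted p = 6.79e-05). Fed mice averaged 33.5, 22.4 and 14.0 reads at those times. The Agpat2 member had 44.2 reads in fasted and 56.0 in fed mice at 3 h and passed at no fasted time. The insulin and FOXO list, of whose 139 peaks 43 fell and 33 rose at 16 h, had 3 members (2.16%), the Ppp1r3b pair within 50 kb and 1 near Insr, the insulin receptor gene, which had 34.0 reads in fasted and 40.7 in fed mice at 3 h and passed at no fasted time.

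The clock list had 4 members among 147 peaks (2.72%), and all 4 fell at 16 h in fasted mice in limma, among them 1 each at Ciart and Clock. Ciart encodes a clock repressor, and its member at +2966 bp had 40.6, 32.2, 80.9 and 32.3 reads in fasted mice at 16 h, against 91.3, 37.0, 94.9 and 59.2 at 3 h, overlapping groups with a change of -0.60 ± 0.24 (limma adjusted p = 0.0382). That call was lost without fasted 16 h replicate 1 (-0.57), 2 (-0.46) or 4 (-0.46) and without fasted 3 h replicate 1 (-0.44) or 3 (-0.43). The Clock member at +13894 bp changed by -0.59 ± 0.20 (adjusted p = 0.0178), lost without fasted 16 h replicate 1 (-0.46) or fasted 3 h replicate 3 (-0.35). Of all 147 clock list peaks, 28 fell and 49 rose at 16 h.

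The list of fatty acid oxidation had 3 members among 128 peaks (2.34%), and all 3 fell at 16 h in fasted mice, when 29 of the 128 peaks fell and 33 rose. The Acot1 promoter member changed by -0.98 ± 0.26 (limma adjusted p = 0.0024), with 16 h replicate 3 at 111 reads among the 3 h values. Ehhadh, the gene of a peroxisomal oxidation enzyme, had 46.6, 67.5, 72.1 and 56.7 reads at 16 h, against 112, 73.0, 89.5 and 75.8 at 3 h, a change of -0.51 ± 0.15 (adjusted p = 0.00661). At 24 h it changed by -0.68 ± 0.15 (adjusted p = 0.00207). Acaa1b, a peroxisomal thiolase gene, changed by -0.73 ± 0.30 (adjusted p = 0.0408), lost without fasted 16 h replicate 3 (-0.56) or 4 (-0.62) or fasted 3 h replicate 1 (-0.66) or 2 (-0.56). On the list of glycolysis, 1 of 89 peaks was a member, at Slc2a2, the gene of the main hepatocyte glucose transporter, which fell at 16 h by 1.03 ± 0.23 (adjusted p = 0.000547), when 10 of the list's peaks fell and 27 rose.

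Some neighbouring members shared a time course. Near the cytochrome P450 gene Cyp2b9, 6 members named for Vmn1r184 lay at chr7:26222782-26226160 and all rose at 16 h in fasted mice. The strongest, at -43805 bp, had 15.5, 16.6, 16.8 and 50.6 reads in fasted mice at 16 h, against 4.08, 4, 1.09 and 11.8 at 3 h, a change of 1.92 ± 0.39 (limma adjusted p = 0.000173). Fed mice had 35.8 ± 3.5 reads at 3 h and 19.3 ± 9.3 at 16 h. At Angptl8, 4 of 5 members rose at 16 h, the one at +2591 bp to 5.18, 19.7, 16.0 and 17.5 reads in fasted mice (change from 3 h 1.76 ± 0.43, adjusted p = 0.00141). Its fed level was 83.7 ± 14 reads at 3 h and 21.3 ± 5.9 at 16 h. The 4 members at Tsku, which encodes a secreted liver protein, did not share a course. The promoter member at -85 bp rose at 8 h by 0.47 ± 0.16 (adjusted p = 0.0383) and at 24 h by 0.47 ± 0.16 (adjusted p = 0.0273), while that at -26124 bp fell at 16 h by 1.38 ± 0.19 (adjusted p = 8.36e-07).

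Beside the other fed-rhythmic peaks, the members' shares at fasted 16 h lay between those of the neighbouring phases. Of the members, 31.0% fell from fasted 3 h and 15.8% rose, against 71.1% and 2.21% of the 996 peaks highest at ZT12 in fed mice. Of the 227 peaks highest at ZT20, 13.2% fell and 33.9% rose. Of the 532 highest at ZT4, 9.59% fell and 38.5% rose. These shares are given without a test of their difference.

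Macrophage nuclei came from other mice and did not enter the rule. Only 22 members (6.09%) overlapped a listed macrophage peak, against 14196 of all 46832 hepatocyte peaks (30.3%), and they met 23 of 30170 macrophage peaks, 22 of which coincide over 200 bp and 1 over 10 bp. The macrophage table lists promoter peaks for all 10 macrophage markers and for no hepatocyte marker, with Lyve1 of the endothelial list and Ptprc and S100a8 of the lymphocyte and neutrophil list. In fed mice, limma called 0 of the 23 lower at 8 h than at 3 h (against 0.0232% of all macrophage peaks), 2 at 16 h (8.70%, against 0.225%) and 0 at 24 h (against 0.0895%). At an unadjusted p under 0.05 there were 3, 5 and 5 lower, and edgeR called 2 at 8 h and 1 at 24 h. The median changes were -0.01, -0.14 and -0.06, with 20 of 23 below 0 at 16 h.

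The 2 that passed were a peak near the predicted gene Gm3336 and the Tsku promoter peak, both named after their values were seen. The Tsku peak had 155, 155, 127 and 137 reads in fed macrophage nuclei at 16 h, against 197, 208, 186 and 179 at 3 h, a change of -0.42 ± 0.09 (limma adjusted p = 0.00653) with no overlap. In fed hepatocyte nuclei the same peak, a member, averaged 47.3 ± 7.8 reads at 16 h and 132 ± 15 at 3 h. The Gm3336 peak changed by -0.66 ± 0.12 (adjusted p = 0.00151). One of the 2 calls was lost without fed 16 h replicate 3.

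Between fasted and fed macrophage nuclei, 1 of the 23 changed at 3 h (4.35%, against 1.82% of all macrophage peaks), 2 at 8 h (8.70%, against 6.60%), 9 at 16 h (39.1%, against 21.3%) and 6 at 24 h (26.1%, against 11.3%). At 16 h 6 were lower and 3 higher, where the median of all macrophage peaks was -0.10. With these values 17.5% of all macrophage peaks were lower and 3.79% higher at 16 h, but 8.70% and 12.5% after median centring. The promoter peak of Mex3b, an RNA-binding protein gene, had 80.4, 131, 132 and 99.5 reads in fasted macrophage nuclei at 16 h, against 196, 201, 189 and 171 in fed ones, a change of -0.79 ± 0.10 (limma adjusted p = 3.12e-07) with no overlap. It was also lower at 24 h, by 0.51 ± 0.10 (adjusted p = 0.000333). In hepatocyte nuclei it had 58.9 ± 29 reads in fasted and 39.9 ± 5.5 in fed mice at 16 h.

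The peak near Pnpla5, a lipase family gene, had 75.8, 61.7, 57.2 and 50.5 reads in fasted macrophage nuclei at 16 h, against 113, 94.6, 107 and 88.0 in fed ones, a change of -0.71 ± 0.11 (limma adjusted p = 2.91e-05). Those near Nr2c1, an orphan nuclear receptor gene, and Paqr9 changed by -0.61 ± 0.09 (adjusted p = 9.9e-06) and -0.38 ± 0.10 (adjusted p = 0.00373). Higher in fasted macrophage nuclei at 16 h were the peaks of Cflar, a caspase inhibitor gene, by 0.72 ± 0.19 (adjusted p = 0.00459), of Sept9 by 0.58 ± 0.16 (adjusted p = 0.00884) and of Id3, a gene of a dominant negative helix-loop-helix factor, by 0.56 ± 0.18 (adjusted p = 0.0177). The Cflar peak had 98.2, 65.3, 47.4 and 47.5 reads in fasted and 47.2, 37.4, 46.2 and 22.0 in fed nuclei, without overlap. In hepatocyte nuclei the Sept9 member rose from fasted 3 h, as given above, which is another comparison. As a description, it had 76.5 ± 27 reads in fasted and 22.8 ± 9.4 in fed hepatocyte nuclei at 16 h. The macrophage Sept9 peak was not called between fasted and fed nuclei at 3, 8 or 24 h.

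**Figure D5:**
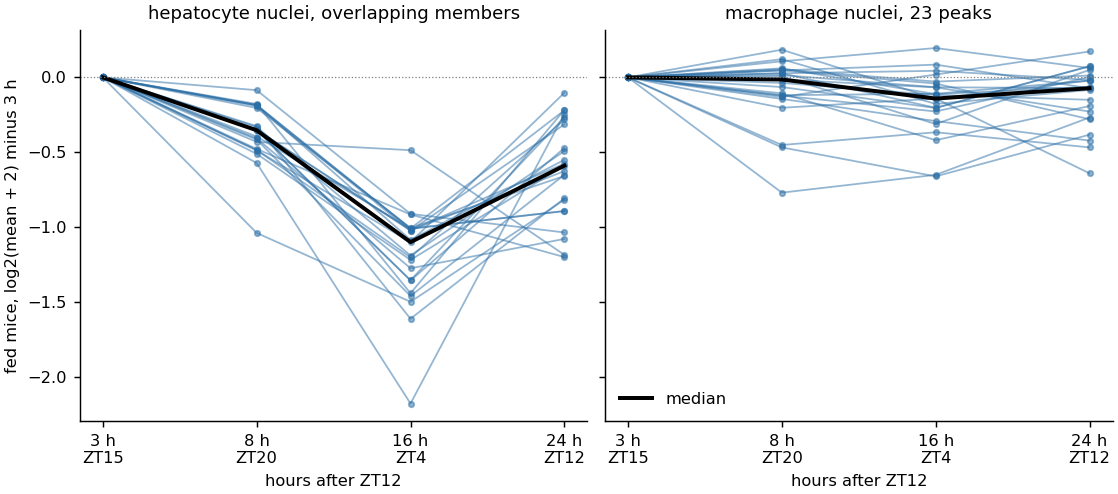
Fed means over 3, 8, 16 and 24 h, in log2(mean + 2) minus the 3 h value, of the members that overlap a macrophage peak (hepatocyte nuclei, left) and of the 23 macrophage peaks (right), with a line per peak and the median in black. Hepatocyte lines fall by the choice of the members, and the macrophage median changes at the later times are -0.01, -0.14 and -0.06.

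The thresholds cut through a continuous range. Just inside the level of 30 were Unc45b (30.1 reads), Miga2 (30.3) and Plekha6 (30.3), and just outside it Lrrc69 (29.97), Cyp2b9 (29.9) and Dkk3 (29.8). At the amplitude threshold, Blcap, Trim55 and Actrt3 stood at 1.00 and Derl1, Cadm1 and Fosb at 0.999, 0.999 and 0.998.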

How the data were processed

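Each listed 200-bp peak of a hepatocyte or macrophage table has 1 value per mouse, a signal that the authors deposited as reads divided by 1 factor per library, per the file headers. How the factor was set is not given in the sources used here. The submitters' processing notes name BWA 0.7.5a-r405, SAMtools, HOMER, DESeq2 and mm10. Values were whole multiples of 1 step per library within 0.01 read, and edgeR 4.0.16 and DESeq2 1.42.0 were run on those recovered reads as alternatives. Macrophage libraries were run as technical duplicates, per the labels, with 1 value per mouse deposited.

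limma 3.58.1 in R 4.3.3 (trended variance, group means of the 8 groups of a cell type) was fitted to log2(value + 2) for peaks with a mean of at least 10 over all libraries, with Benjamini-Hochberg adjustment over all of them and a threshold of 0.05. The offset understates changes of low peaks. The pipeline was tested on simulated data. No 2 libraries held the same values. Mice were numbered within groups in accession order. The library numbers in the titles fall into sets of consecutive numbers that each hold every group of a cell type, so equal replicate numbers share a set. The labels do not say what a set is, and it is no term of the fit. The labels describe the samples of a group as separate mice.

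Members and gene lists were chosen with earlier results of these data known. Peaks to name were picked by rule, 1 per gene, and only some of them are described in the text. The rule took the 15 largest in fed amplitude and the 6 largest called changes in each direction and fasted comparison whose mice do not overlap. It also took the 6 largest fasted-minus-fed differences per time and direction, up to 4 per list, the macrophage counterparts called, and those nearest the thresholds. Peaks picked but not described include Zfp575, Pdxp, Thrb and Adh1. Other peaks of the genes in the text, the Tsku, Hspb1 and Abcb11 peaks and loci were named after their values were seen. Alternatives were median centring, other offsets, group medians, no filter, a wider overlap with macrophage peaks, the sets of consecutive library numbers in the titles as a block, and leaving out each mouse. Some results are not reported here.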

Additional observations from a re-analysis of the deposited data

Results flagged for a closer look

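Among 240 groups of 4 mice, 16 held a mouse far from the other 3, and chance gives about 1 in 20. These were the 8 groups of each of 29 named peaks and of the members' median level. Some peaks given mouse by mouse above were not among the 29. In fasted mice at 3 h, the lone high values were 39.12 reads at Chd7 (others 23.69 to 26.18), 10.27 at Trim7 (others 5 to 5.706) and 94.55 at the Cbfa2t3 +1853 bp peak (others 54.55 to 58), and the lone low value was 50 at Slc22a16 (others 132 to 142.1). At fasted 16 h, Vmn1r184 had 50.63 in 1 mouse (others 15.54 to 16.83) and Cdk1 64.12 (others 22.7 to 24.18), and at fasted 24 h Vmn1r184 had 12.39 (others 9.478 to 9.823).

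In fed mice at 8 h, Fubp3 had 84.49 in 1 mouse (others 60.12 to 63.34), Car3 39.88 (others 28.78 to 30.65) and Coq8a 38.31 (others 53.57 to 55.71). At fed 16 h, Fbxo33 had 18.82 (others 12.75 to 13.29), Zfp184 30.46 (others 16.04 to 17.48) and Clock 19.52 (others 27.51 to 28.69). At fed 24 h, Angptl8 had 21.87 (others 7.16 to 7.483), Clock 41.59 (others 23.62 to 25.46) and the distal Ppp1r3b peak 21.09 (others 42 to 45.87).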

How the results depend on the processing

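With the sets of consecutive library numbers as a block, no count of members or counterparts moved by over 1.5 times. Members falling at 8 h numbered 14, but 22 with DESeq2 and 23 with edgeR, and members rising at 24 h numbered 24, but 11 with DESeq2 and 13 with edgeR. Members higher in fasted than fed mice at 3 h numbered 7, but 11 with edgeR. In macrophage nuclei, edgeR called 2 and 1 counterparts lower at fed 8 and 24 h, and median centring 1 and 1, against 0 and 0. Fasted minus fed, median centring called 0 at 3 h (against 1), and edgeR and centring 1 each at 8 h (against 2). An offset of 8 left 190 members, all of them among the 361. Group medians gave 391 members, 311 of them among the 361. Without fed 3 h replicate 1 there were 330 members, 288 of them among the 361 (79.8%). The cause of these shifts was not tested.

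Leaving out 1 mouse at a time gave 8 to 14 falls and 42 to 72 rises at 8 h, 33 to 58 falls and 11 to 28 rises at 24 h, and 3 to 14 members higher in fasted mice at 3 h. The 14 falls at 8 h became 8 without fasted 3 h replicate 4, and the 24 rises at 24 h became 15, 13 and 15 without fasted 24 h replicates 1, 2 and 4. It gave 1 to 2 macrophage counterparts lower at fed 16 h, and 0 to 1 at 3 h and 0 to 2 at 8 h changed between fasted and fed nuclei. Of 98 called changes of named peaks, 72 passed under every alternative run and none changed sign. Depth limits peaks of a few reads most, since 1 read there is a large part of the level.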
